A study of Mus musculus with 48 samples.

Results

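The genes described are 81 genes for proteins of the cytosolic ribosome, of 47643 gene identifiers counted in each library. They were taken by symbol: names made of Rpl or Rps, a number and at most 2 further characters, plus Rplp0, Rplp1, Rplp2 and Rpsa, without the Rps6k kinases, and with at least 500 counts over all 48 libraries. Of 88 genes with such a name, 7 fell below that minimum. Closest to it from below were Rps3a3 with 152 and Rpl6l with 202 counts, and closest from above were Rpl24 with 725 and Rps4l with 970. The members comprise 33 genes named for the small subunit and 48 named for the large subunit. Among them are 4 paralogues of other members, Rps27l, Rpl22l1, Rps4l and Rpl7l1. All 81 passed the filter on low counts in every fit.

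RNA came from organoids, self-organising cultures in gel, grown from submandibular salivary glands of C57BL/6 mice aged 8 to 12 weeks. On day 5 of culture they received 4, 7 or 15 Gy of photons, 4, 7 or 15 Gy of protons from the plateau of the beam, or no irradiation, and they were harvested at day 2 or day 6 afterwards. Every group grew in the same medium with Wnt3a and R-spondin1 conditioned media, EGF, FGF2, dexamethasone and the kinase inhibitor Y27632, so the controls carry those agents too. The 16 groups hold 3 libraries each, 1 per mouse. Photon and proton exposures took place on separate days, so each type and time point has unirradiated controls of its own. The labels number the mice 1 to 3 within each type. They do not say that the same 3 mice served both types, and p-values measure the spread between these cultures.

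A ribosome is built from a small and a large subunit, each a core of ribosomal RNA covered with many proteins. The messenger RNAs of these proteins are among the most abundant of a growing cell, and most begin with a run of pyrimidines, the 5' terminal oligopyrimidine (TOP) tract, through which mTOR signalling controls their translation. Some ribosomal proteins have a further role in the p53 pathway: RPL5 and RPL11, bound to 5S ribosomal RNA, inhibit MDM2 when ribosome assembly is disturbed, and Rps27l is a transcriptional target of p53.

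The sequences around the start of transcription show what many members share apart from their names. RefSeq windows on GRCm38.p6, from 250 bases before to 50 bases after the annotated start, were matched by symbol for 60 of the 81 members. A C at the annotated start followed by at least 4 C or T bases was present in 13 of these 60 members, or 21.7%, against 3.01% of all 27025 genes in the table. The motif CCGGAAG, the core bound by ETS-family factors, was present on either strand in 25 of the 60, or 41.7%, against 9.93% of all genes. The stretches below, from 30 bases before the start to the 20 bases that begin with it, are shown for the pair Rps27 and Rps27l, whose values differ most plainly in what follows, for 6 other members that were lower at 15 Gy of protons on day 6, and for Rpl26, which was not. Capitals mark the pyrimidine tract at the start and the motif CCGGAAG. Rps10, Rps18 and Rpl35 were chosen for their start sequences, so these stretches do not show how often lower members have the tract.
Rps27, chr3:90213629-90213678, minus strand: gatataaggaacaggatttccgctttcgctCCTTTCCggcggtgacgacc
Rps27l, first of 2 annotated starts, chr9:66946056-66946105, plus strand: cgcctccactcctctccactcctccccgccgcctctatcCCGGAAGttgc
Rplp2, chr7:141447621-141447670, plus strand: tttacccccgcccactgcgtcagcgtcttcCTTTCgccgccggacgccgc
Rps18, chr17:33955646-33955695, minus strand: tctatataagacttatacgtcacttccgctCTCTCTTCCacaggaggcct
Rps10, chr17:27635225-27635274, minus strand: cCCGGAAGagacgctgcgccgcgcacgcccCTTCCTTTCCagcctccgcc
Rpl35, chr2:39005112-39005161, minus strand: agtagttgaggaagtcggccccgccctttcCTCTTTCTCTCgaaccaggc
Rps16, chr7:28350659-28350708, plus strand: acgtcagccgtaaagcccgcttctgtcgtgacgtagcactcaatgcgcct
Rps4x, chrX:102189372-102189421, minus strand: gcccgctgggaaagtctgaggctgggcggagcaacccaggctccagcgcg
Rpl26, chr11:68901536-68901585, plus strand: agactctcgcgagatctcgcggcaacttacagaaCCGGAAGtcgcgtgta
Rps27 has the tract at its annotated start, and the paralogue Rps27l does not but has CCGGAAG shortly after it. Of the 35 matched members that were lower at 15 Gy of protons on day 6, 8 had the tract (22.9%). It was present in 5 of the other 25 matched members (20.0%), a similar share. The motif CCGGAAG was in 14 of those 35 and in 11 of those 25. The letters at an annotated start depend on where RefSeq places it, and a missing tract says only that these letters are not in this window.

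The libraries held 314409 to 4745719 gene counts, with a median of 2952939. The member genes took 3.16 to 6.94% of them, with 95% Wilson intervals of at most 0.0611 points to either side, which cover counting error only. The library of photons, 4 Gy, day 6, mouse 3 stood apart, with the lowest depth, 314409 counts, and the lowest share, 3.16%. Basal duct keratins were abundant, with a median of 3310 CPM (gene counts scaled to a common total) for Krt5 and 1380 CPM for the luminal Krt7. The other luminal markers had medians of 439 (Krt18), 145 (Krt19), 98.0 (Krt8), 0.842 (Elf5) and 0.0 CPM (Kit). Markers of fibroblasts summed to at most 3.25 CPM and those of immune cells to at most 12.7 CPM in any library, while Cdh5 and Cd3e had no count in any of them. The acinar markers of the intact gland were low, with Aqp5 at a median of 4.35 CPM.

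Reads were counted at the 3' ends of polyadenylated transcripts. The gene with the most counts was Rps20, with 281390, followed by Rplp1 with 244308 and Rpl23a with 242034. Rps6, the ribosomal protein phosphorylated by S6 kinases, had only 4227. Ribosomal protein genes have many near-identical processed pseudogenes, and reads that match both may be lost or misplaced, so the counts were compared within a gene and not between genes. Annotated pseudogenes of this family took 0.02 to 0.0347% of gene counts in a library.

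On day 6 after protons the summed share was lower than in the matched controls at every dose, and so it was with any 1 library of the groups compared left out. The libraries did not overlap their controls at any dose on day 6 after protons and at 7 Gy on day 2 after protons, and overlapped elsewhere. On day 6 after protons the controls stood at 5.03, 5.03 and 5.17%. The libraries of that day ranged from 4.08 to 4.89% at 4 Gy, from 4.31 to 4.43% at 7 Gy and from 3.99 to 4.47% at 15 Gy. All 9 irradiated libraries thus lay below all 3 controls, with group means of 4.51% ± 0.41, 4.36% ± 0.07 and 4.24% ± 0.24 (SD, n = 3) against 5.08% ± 0.08. Relative to the control mean, the 15 Gy mean differed by -16.5%.

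On day 2 after protons the share was 5.02% ± 0.50 in controls, 4.89% ± 0.67 at 4 Gy, 4.40% ± 0.23 at 7 Gy and 4.53% ± 0.44 at 15 Gy (SD, n = 3). Only the 7 Gy libraries, 4.16 to 4.62%, lay below all of their controls, 4.72 to 5.60%. On day 2 after photons the controls alone spanned 4.38 to 6.94%, and the means were 5.65% ± 1.28 in controls and 5.54% ± 0.70, 4.77% ± 0.52 and 4.57% ± 0.33 at 4, 7 and 15 Gy (SD, n = 3), with overlapping libraries at every dose. On day 6 after photons the means were 4.81% ± 0.51, 4.38% ± 1.08, 4.52% ± 0.28 and 4.34% ± 0.17 (SD, n = 3), again with overlap. In both photon series and on day 2 after protons single libraries set much of these differences. At 4 Gy the difference turned from -0.11 to 0.53 points on day 2 after photons without the control of mouse 1, and to 0.12 and 0.06 without the 4 Gy library of mouse 1 or 3. It turned from -0.43 to 0.18 on day 6 after photons without the shallow 4 Gy library, and from -0.13 to 0.16 or 0.14 on day 2 after protons without the control of mouse 2 or the 4 Gy library of mouse 3. At 7 and 15 Gy no direction turned, but on day 2 after photons the differences of -0.88 and -1.08 points became -0.24 and -0.43 without the control of mouse 1, and -1.52 and -1.72 without that of mouse 3. On day 6 after photons, -0.29 and -0.47 became -0.04 and -0.22 without the control of mouse 3, and -0.55 and -0.74 without that of mouse 2; without the 7 Gy library of mouse 1 the former was -0.13. On day 2 after protons, -0.62 and -0.49 became -0.33 and -0.21 without the control of mouse 2, and the latter -0.27 without the 15 Gy library of mouse 1. No test was made of the share, since the members were chosen with earlier results known.

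**Figure D1:**
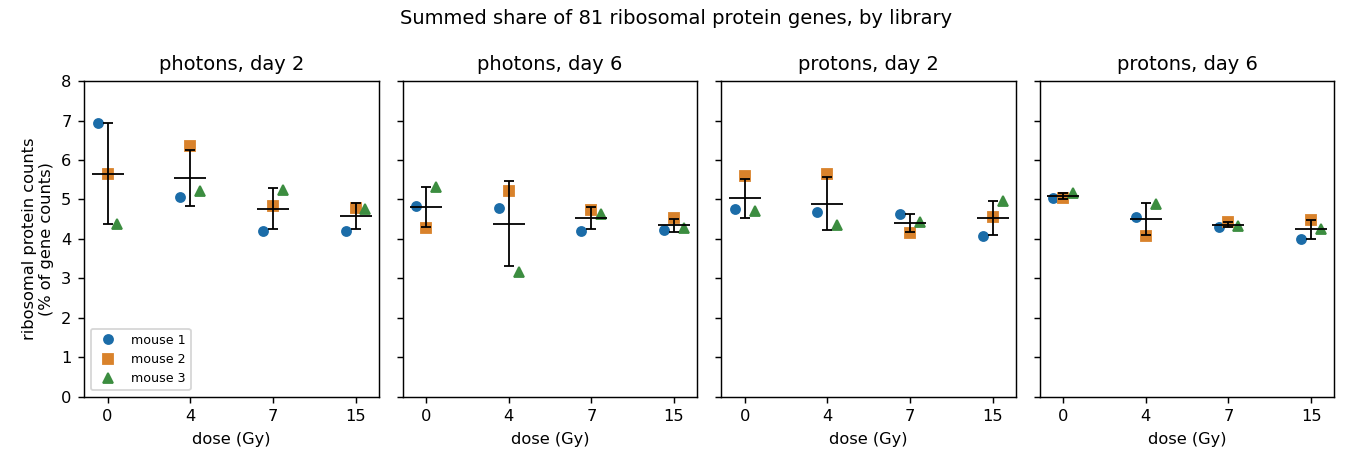
Share of gene counts taken by the 81 ribosomal protein genes (vertical axis, percent) against dose (Gy, evenly spaced categories) for each radiation type and day. Points are libraries, coloured by mouse number, and black bars are the group mean and SD; on day 6 after protons the 3 controls, 5.03 to 5.17%, lie above all irradiated libraries, while the photon controls of day 2 spread from 4.38 to 6.94%.

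Counts for the small subunit divided by counts for the large subunit also separated on day 6 after protons. The ratio was 0.958 to 0.963 in the controls, 0.91 to 0.922 at 4 Gy, 0.912 to 0.929 at 7 Gy and 0.879 to 0.909 at 15 Gy, with no overlap between controls and any dose. The direction was not the same elsewhere: at 15 Gy of photons the day 6 libraries lay below their controls, whereas at 15 Gy of protons the day 2 libraries, 0.945 to 0.954, lay above theirs, 0.903 to 0.926. In a bulk library, fewer cells of a type and less RNA per cell cannot be told apart.

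Gene by gene, most calls were made on day 6 after protons. At 15 Gy, 49 of 81 members were lower and none was higher (edgeR quasi-likelihood test, Benjamini-Hochberg adjusted p under 0.05), with 13.2% of all tested genes lower and 11.0% higher. At 7 Gy, 34 members were lower and 1, Rps27l, was higher, beside 6.6% of all genes lower and 5.49% higher. At 4 Gy only Rps28, a small protein of the small-subunit head, was lower, beside 0.435% of all genes lower and 1.13% higher. Its values were 800, 737 and 797 normalised CPM (CPM on a library size multiplied by the normalisation factor) in controls and 573, 560 and 540 at 4 Gy, which did not overlap, and its log2 fold change was -0.48 ± 0.12 (SE, adjusted p = 0.042). With mouse number as a replicate block that call was lost, as it was when any 1 control, 4 Gy or 7 Gy library was left out; without the 15 Gy library of mouse 1 or mouse 3, 9 and 3 members were lower at 4 Gy. The median log2 fold change of the 81 members was -0.26 at 4 Gy, -0.43 at 7 Gy and -0.50 at 15 Gy, while that of all tested genes was within 0.02 of 0. Leaving out the control of mouse 1, 2 or 3, or the 7 Gy library of mouse 2, left 22, 18, 21 and 18 lower members at 7 Gy. Here and below, counts of members under other settings or with a library left out lack the share of all genes beside them. So do counts at an unadjusted p under 0.05. The exception is library size alone at 7 and 15 Gy of protons on day 6, where calls over all genes are given. Counts without that share do not tell a change of the members from one of all genes. The doses were not tested against each other.

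Several other measures moved with this comparison. The day 6 proton controls were the shallowest libraries of their series, with 1812349 to 2244980 gene counts against 2514472 to 4220561 after irradiation, and had normalisation factors of 0.895 to 0.946 against 0.96 to 1.08. Thinned to equal depth, the series gave 35 lower members at 7 Gy and 46 at 15 Gy. With library size alone in place of TMM (trimmed mean of M values) factors, the median of all genes shifted by 0.19 at 7 Gy and 0.14 at 15 Gy on the log2 scale. Under that scaling 11 members were lower and 1 higher at 7 Gy, and 30 were lower and 2 higher at 15 Gy, the latter being Rps27l and Rpl26. Over all genes the split of higher to lower calls went from 594 and 713 to 1400 and 380 at 7 Gy, and from 1184 and 1427 to 1947 and 925 at 15 Gy. The fold changes below are therefore relative to the bulk of the genes.

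The summed basal duct markers were 6447 to 7223 CPM in the day 6 proton controls and 3452 to 4659 CPM at 15 Gy, and the summed luminal duct markers 1720 to 2059 CPM and 2604 to 3322 CPM. Over all 48 libraries Krt7 had the most counts of the luminal markers, 205191, and Elf5 and Kit had 230 and 12. Summed proliferation genes were 406 to 560 CPM in those controls and 220, 657 and 266 CPM at 15 Gy. The part of depth, cell makeup and proliferation in the ribosomal protein result was not tested, apart from the thinning.

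**Figure D2:**
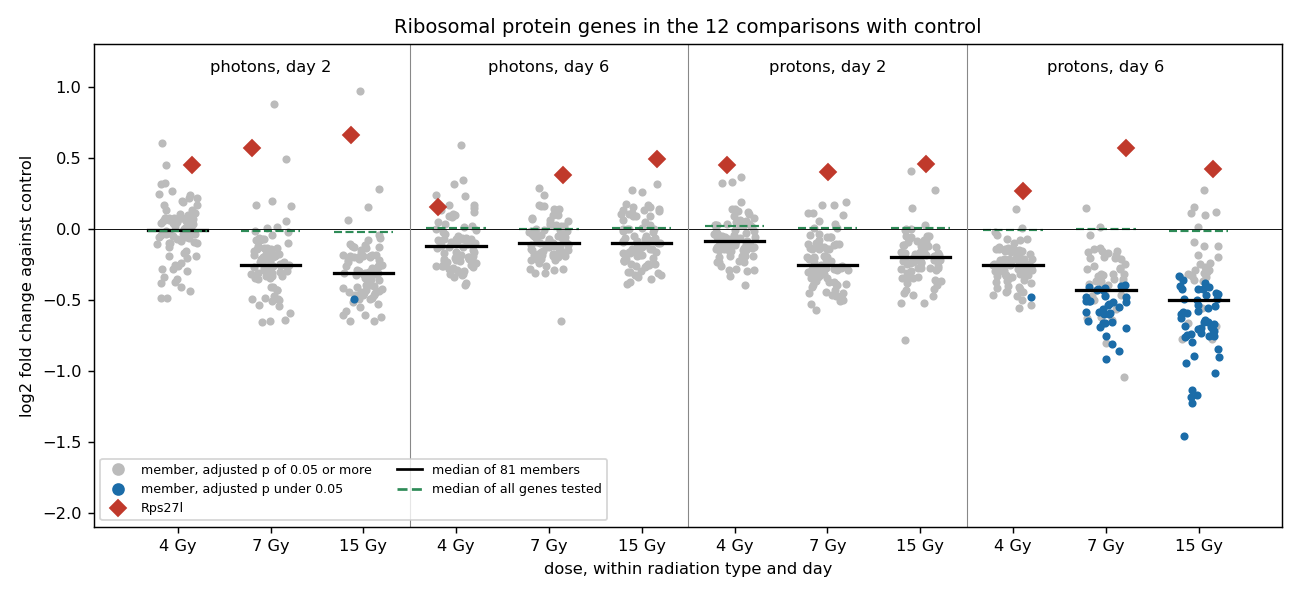
Log2 fold change against the matched control (vertical axis) of the 81 members in each of the 12 comparisons (horizontal axis, dose within radiation type and day). Blue points passed an adjusted p of 0.05, grey points did not, red diamonds are Rps27l, black bars the median of the members and green dashes the median of all tested genes; calls gather at 7 and 15 Gy of protons on day 6, and Rps27l lies above 0 in all 12.

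Both subunits took part on day 6 after protons. At 15 Gy, 19 of 33 small-subunit members were lower, with a median of -0.56, and 30 of 48 large-subunit members, with a median of -0.50. At 7 Gy the counts were 15 of 33, with a median of -0.50, and 19 of 48, with a median of -0.41.

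The small-subunit gene Rps16 had the lowest fold change at 15 Gy of protons on day 6. Its normalised CPM were 386, 431 and 511 in the controls, 347, 266 and 361 at 4 Gy, 267, 219 and 244 at 7 Gy, and 199, 201 and 81.8 at 15 Gy (mice 1, 2 and 3 in this order). No irradiated library reached the lowest control, and mouse 3 at 15 Gy was the lowest of all. The log2 fold change at 15 Gy was -1.46 ± 0.24 (SE, adjusted p = 0.00026).

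Rps4x, the X-linked form of a small-subunit protein, gave tighter groups. It had 142, 149 and 151 normalised CPM in the controls, 97.3, 89.7 and 113 at 4 Gy, 85.7, 74.8 and 91.3 at 7 Gy, and 76.4, 69.2 and 54.7 at 15 Gy. The dose groups did not overlap the controls, and the log2 fold changes were -0.56 ± 0.14 (adjusted p = 0.055), -0.81 ± 0.14 (adjusted p = 0.00089) and -1.14 ± 0.14 (adjusted p = 2.36e-05). Rps4x at 7 and 15 Gy passed the test under every alternative that was run. Its paralogue Rps4l was sparse, at 3.17 to 13.0 normalised CPM over that series, and gave -0.25 ± 0.49 at 15 Gy (adjusted p = 0.76).

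Rpl10, a large-subunit protein needed to complete the subunit in the cytoplasm, went from 64.4, 91.1 and 91.5 normalised CPM in controls to 47.1, 41.1 and 16.2 at 15 Gy. Its log2 fold change of -1.23 ± 0.29 (adjusted p = 0.0049) held when any 1 library was left out, although mouse 3 lay far below the other mice. The same mouse was lowest at 15 Gy for Rps2, with 349, 253 and 116 normalised CPM against 411 to 610 in controls, and for Rpl7a, with 276, 169 and 78.1 against 335 to 453. Their log2 fold changes were -1.18 ± 0.27 (adjusted p = 0.0039) and -1.18 ± 0.29 (adjusted p = 0.0063). Without that library 39 members were lower at 15 Gy, and the median of the members was -0.44.

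Of the ribosomal stalk, which recruits elongation factors, Rplp2 changed most. It had 1413, 1135 and 1018 normalised CPM in controls, 818, 721 and 818 at 7 Gy and 736, 731 and 794 at 15 Gy. The log2 fold changes were -0.60 ± 0.13 (adjusted p = 0.0043) and -0.66 ± 0.13 (adjusted p = 0.0011), and both held under every alternative. Rplp1 was lower by a smaller step, -0.47 ± 0.11 at 7 Gy (adjusted p = 0.011) and -0.41 ± 0.11 at 15 Gy (adjusted p = 0.015). Rplp0, the protein that anchors the others, passed at 7 Gy with -0.41 ± 0.12 (adjusted p = 0.037) and gave -0.32 ± 0.12 at 15 Gy (adjusted p = 0.066).

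Among the members linked to p53, Rpl5 was lower at both doses. It had 320, 364 and 356 normalised CPM in controls and 223, 234 and 121 at 15 Gy, below all controls, with a log2 fold change of -0.85 ± 0.20 (adjusted p = 0.0051). Rpl11, its partner on 5S ribosomal RNA, went from 749 to 820 in controls to 501, 714 and 586, with -0.40 ± 0.13 (adjusted p = 0.027), a call that 7 alternatives ended. Rpl23, also a binder of MDM2, gave -0.37 ± 0.15 (adjusted p = 0.079). Rpl26, known to bind p53 messenger RNA, had 1061, 887 and 880 normalised CPM in controls and 892, 1276 and 1253 at 15 Gy. Its libraries overlapped and its log2 fold change was 0.27 ± 0.14 (adjusted p = 0.16).

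Several further members of known function were lower at 15 Gy of protons on day 6. Rps3, a small-subunit protein also linked to DNA repair, went from 802, 889 and 900 normalised CPM to 623, 482 and 451, a log2 change of -0.74 ± 0.13 (adjusted p = 0.00057). Rpl3, at the peptidyl transferase centre, went from 431 to 445 normalised CPM to 301 to 314, a log2 change of -0.50 ± 0.11 (adjusted p = 0.0026). Rpl39, which lines the peptide exit tunnel, went from 343, 436 and 479 normalised CPM to 296, 248 and 232. Its log2 change was -0.69 ± 0.14 (adjusted p = 0.0013). Paralogues of these genes that are known from muscle or testis, Rpl3l, Rpl39l and Rpl10l, had 2 counts each over all 48 libraries.

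Rpsa, which is also the laminin receptor, was lower at 7 Gy, with -0.51 ± 0.11 (adjusted p = 0.0055), and at 15 Gy, with -0.43 ± 0.11 (adjusted p = 0.0099). Rpl22 fell by 0.43 ± 0.11 on the log2 scale at 15 Gy (adjusted p = 0.0077) together with its paralogue Rpl22l1, at -0.60 ± 0.19 (adjusted p = 0.028). Rpl7 and its paralogue Rpl7l1 did not pass, at -0.34 ± 0.14 (adjusted p = 0.089) and 0.15 ± 0.14 (adjusted p = 0.46). Rps6 was low and scattered, at about 26 to 30.1 normalised CPM in controls and 24.8, 21.2 and 7.22 at 15 Gy, and gave -0.69 ± 0.33 (adjusted p = 0.15).

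A minority of members did not pass at 15 Gy. Of the 32 such members, 7 had a log2 fold change above 0. Rps19, the gene mutated most often in human Diamond-Blackfan anaemia, had 808, 660 and 703 normalised CPM in controls and 585, 722 and 882 at 15 Gy, and gave 0.01 ± 0.14. Rpl13a, whose protein is also known from interferon-gamma-regulated translation, gave 0.12 ± 0.14, with libraries that overlapped. Across the 81 members, log2 fold change at 15 Gy of protons on day 6 and median CPM had a Spearman correlation of 0.41, and the same measure at 15 Gy of photons on day 6 was -0.67. These describe genes counted in the same libraries and are not independent replicates. Of the 30 members whose genes contain a small nucleolar RNA in the mouse annotation, 21 were lower at 15 Gy of protons on day 6, and of the other 51 members 28 were.

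**Figure D3:**
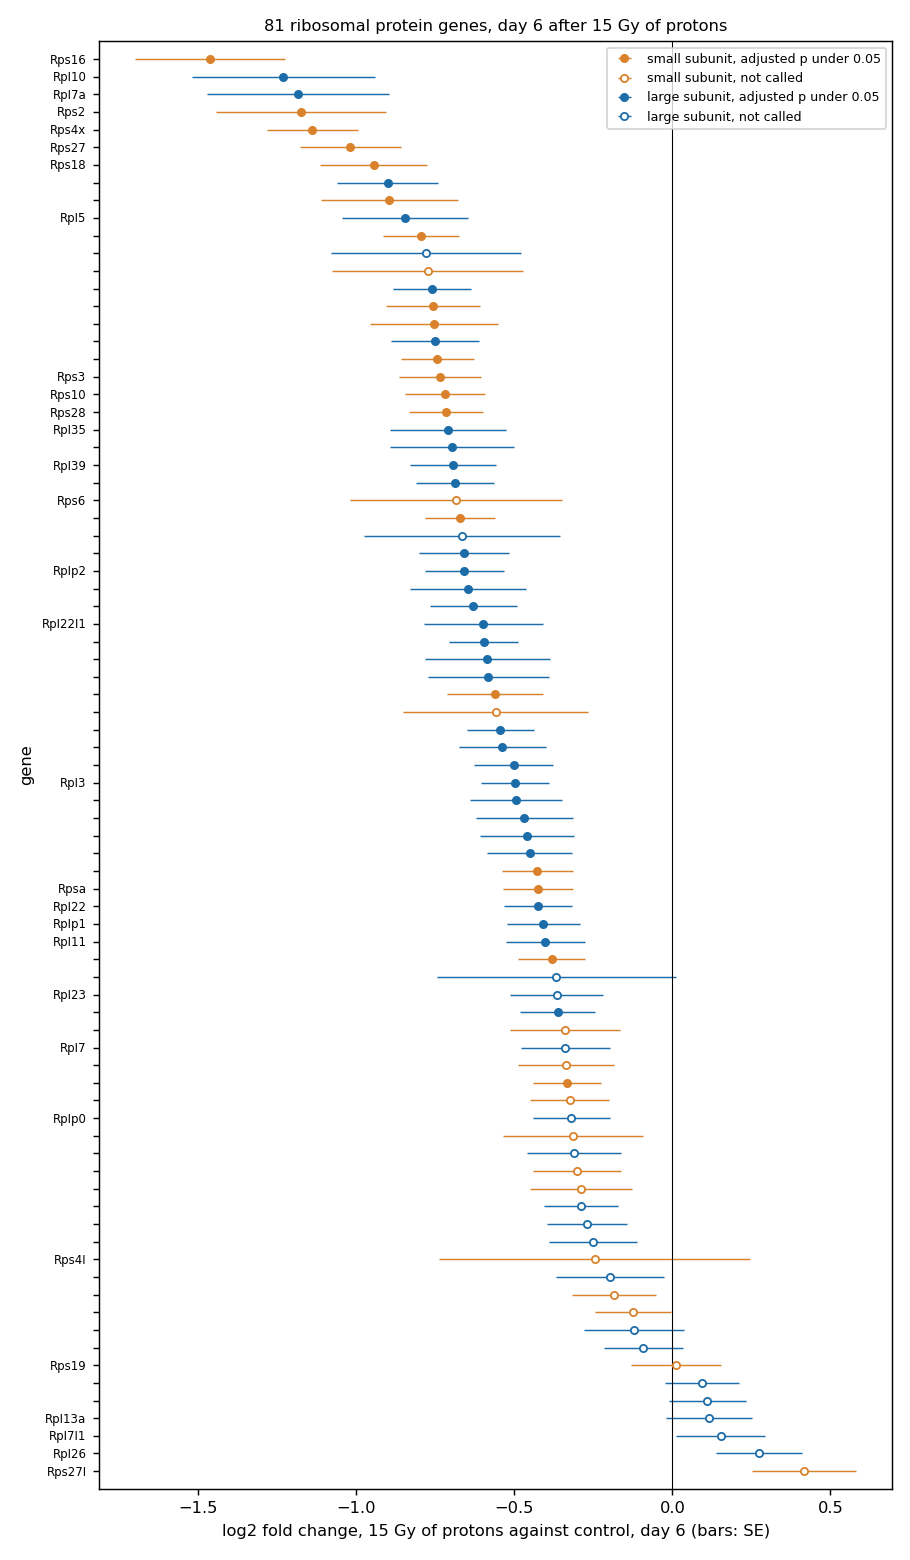
Log2 fold change with its SE at 15 Gy of protons against control on day 6 (horizontal axis) for each of the 81 members (vertical axis, ordered by fold change, with names for genes described in the text), in orange for the small and blue for the large subunit. Filled points passed an adjusted p of 0.05: 19 small-subunit and 30 large-subunit members, from Rps16 at -1.46 upward, while Rps27l at 0.42 is the highest.

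Rps27 and Rps27l encode closely similar small-subunit proteins, and at 7 Gy of protons on day 6 Rps27 was lower and Rps27l higher. The latter call was lost when any 1 of the controls or the 7 Gy library of mouse 2 was left out, and the former without the control of mouse 3, the 7 Gy library of mouse 1 or that of mouse 2, or with library size alone. Rps27 had 496, 522 and 682 normalised CPM in the proton controls of day 6, 412, 342 and 474 at 4 Gy, 335, 317 and 427 at 7 Gy and 296, 298 and 245 at 15 Gy. No irradiated library of that day reached a control. The log2 fold changes were -0.66 ± 0.16 at 7 Gy (adjusted p = 0.011) and -1.02 ± 0.16 at 15 Gy (adjusted p = 0.00019).

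Rps27l had 194, 195 and 218 normalised CPM in those controls, 253, 223 and 253 at 4 Gy, 282, 351 and 265 at 7 Gy, and 302, 192 and 316 at 15 Gy. All libraries at 4 and 7 Gy lay above the controls, and at 15 Gy mouse 2 lay below them. Its log2 fold change was 0.57 ± 0.16 at 7 Gy (adjusted p = 0.032) and 0.42 ± 0.16 at 15 Gy (adjusted p = 0.073). With library size alone, under which the median of all genes shifted upward, the value at 15 Gy was 0.57 ± 0.17 (adjusted p = 0.021).

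After photons Rps27l was already higher on day 2. Its 3 controls had 229, 197 and 220 normalised CPM, and the libraries 333, 239 and 311 at 4 Gy, 305, 328 and 326 at 7 Gy and 381, 307 and 332 at 15 Gy. All 9 irradiated libraries lay above the controls, with log2 fold changes of 0.45 ± 0.14 (adjusted p = 0.27), 0.57 ± 0.14 (adjusted p = 0.048) and 0.66 ± 0.14 (adjusted p = 0.015). Among all genes, 1.56% were higher at 7 Gy and 2.57% at 15 Gy. On day 6 after photons the controls had 207 to 240, the 4 Gy libraries 282, 267 and 178 (the last the shallow library) and the 15 Gy libraries 305 to 326 normalised CPM, a log2 fold change of 0.49 ± 0.15 (adjusted p = 0.07).

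On day 2 after protons the 3 controls had 185, 214 and 205 normalised CPM of Rps27l, and the 9 irradiated libraries 240 to 293. The log2 fold changes were 0.45 ± 0.12 at 4 Gy (adjusted p = 0.10), 0.40 ± 0.12 at 7 Gy (adjusted p = 0.099) and 0.46 ± 0.12 at 15 Gy (adjusted p = 0.025), with 3.94% of all genes higher at 15 Gy. Rps27l was the only member above 0 in all 12 comparisons with control, while 21 members were below 0 in all 12. The comparisons within a radiation type and day share their controls, so their signs are not independent. The share of all genes with the same sign in all 12 is not given here. The difference between the effects of protons and photons on Rps27l at 15 Gy was -0.18 ± 0.18 on day 2 and -0.02 ± 0.22 on day 6 (log2 scale), neither past the threshold.

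**Figure D4:**
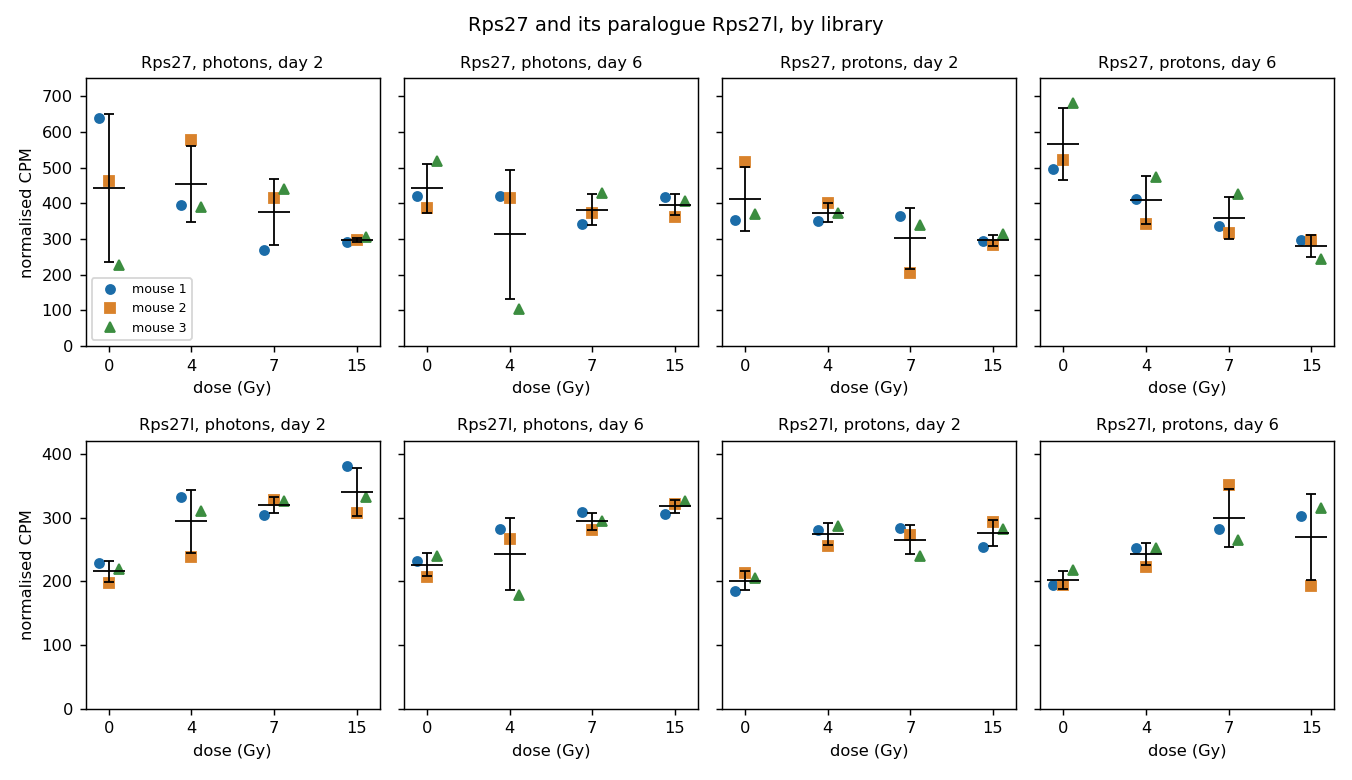
Normalised CPM (vertical axes, starting at 0) of Rps27 (top) and Rps27l (bottom) against dose (Gy, evenly spaced categories) for each radiation type and day; points are libraries by mouse, black bars the mean and SD of 3. Rps27l was 185 to 240 in every unirradiated library, and on day 6 after protons Rps27 went from 496 to 682 in controls to 245 to 298 at 15 Gy.

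Outside day 6 after protons few members passed the test. At 15 Gy of photons on day 2, 1 member was lower beside 2.38% of all genes, and Rps27l was higher. Some members had one low control: Rps27 had 640, 463 and 227 and Rps4x 162, 127 and 58.7 normalised CPM, both lowest in mouse 3. With mouse number as a replicate block only Rps27l passed there. The median of the members was -0.31, 22 members had an unadjusted p under 0.05, and DESeq2 called 4. Leaving out the control of mouse 3, which had the lowest share of its group at 4.38%, gave 33 lower members and 1 higher. Leaving out the control of mouse 1, with the highest share at 6.94%, gave 2 lower and 1 higher, with a median of -0.13. No member passed without the control of mouse 2 or the 15 Gy library of mouse 1. Only Rps27l passed without any 1 of the 15 Gy libraries of mice 2 and 3, the 4 Gy libraries of mice 1 and 3 or the 7 Gy libraries of mice 2 and 3.

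At 7 Gy of photons on day 2 Rps27l was the only member past the threshold, with 1.14% of all genes lower. The median was -0.26, but -0.04 without the control of mouse 1, -0.42 without that of mouse 3 and -0.16 without the 7 Gy library of mouse 1. There 21 members had an unadjusted p under 0.05 and DESeq2 called 11. Without the control of mouse 1 or mouse 3, 5 members were lower and 1 higher, and without the 4 Gy library of mouse 2, 1 was lower and 1 higher. Without any 1 of the other libraries of that day none passed. No member passed with edgeR at 4 Gy of photons on day 2, where 9 had an unadjusted p under 0.05 and DESeq2 called 0; among all genes 0.534% were higher and 0.127% lower. On day 6 after photons none passed at 4, 7 or 15 Gy with edgeR, beside 0.292, 1.12 and 2.77% of all genes lower and 0.937, 1.49 and 2.52% higher. The medians there were -0.12, -0.10 and -0.10, the members with an unadjusted p under 0.05 numbered 0, 3 and 5, and DESeq2 called 0, 0 and 1. Without the control of mouse 3 the medians were -0.04, -0.02 and -0.03, and without that of mouse 2 those at 4 and 15 Gy were -0.20 and -0.16. Without the 4 Gy library of mouse 1, 2 or 3 the 4 Gy median was -0.20, -0.32 or 0.02, and without the 7 Gy library of mouse 1 the 7 Gy median was -0.06. Without the shallow library of 4 Gy, mouse 3, edgeR called 3 members at 7 Gy (2 lower) and 9 at 15 Gy (8 lower).

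On day 2 after protons no member passed at 4 or 7 Gy with edgeR, with 4 and 18 members at an unadjusted p under 0.05 and 0 calls by DESeq2 at either dose. Of all genes, 0.351 and 1.32% were lower and 0.703 and 1.62% higher at these doses. Without the 7 Gy library of mouse 3, 1 member passed at 7 Gy. At 15 Gy only Rps27l passed, beside 4.37% of all genes lower, 16 members had an unadjusted p under 0.05, DESeq2 called 3, and a replicate block for mouse gave 2 calls. The medians were -0.09, -0.25 and -0.20. Without the control of mouse 2 they were 0.01, -0.16 and -0.12. At 4 Gy the median was -0.15 without the control of mouse 3, and -0.17 or -0.02 without the 4 Gy library of mouse 2 or 3. At 7 Gy it was -0.16 without the 7 Gy library of mouse 2. Leaving out the 7 Gy library of mouse 2 gave 4 lower and 1 higher at 15 Gy, and leaving out the 4 Gy library of mouse 2 gave 2 lower and 1 higher. None passed without any 1 of the controls or the 15 Gy library of mouse 2 or 3. Over the 12 comparisons with control, 30 members passed in none. Rps28 was lower in 3 comparisons, and no member was lower in more.

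The unirradiated controls were compared over time in culture. Between day 2 and day 6 in the photon controls 7 members were lower and none higher, or 8.64% of the members, beside 8.48% of all genes lower and 6.25% higher, so the share lower was near that of all genes. Rpl27a had 425, 456 and 583 CPM on day 2 and 311, 313 and 302 CPM on day 6, a log2 fold change of -0.74 ± 0.15 (adjusted p = 0.0013). Rpsa had 425, 361 and 396 CPM on day 2 and 258, 255 and 261 CPM on day 6, a log2 fold change of -0.68 ± 0.13 (adjusted p = 0.00081). Both were lower in all day 6 libraries and held under every alternative. Rps20, Rpl6, Rpl3, Rps13 and Rpl7 also passed, at -0.60 to -0.40. Without the day 2 control of mouse 3, 19 members were lower, and without the day 6 control of mouse 1 or of mouse 2, 3 were.

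In the proton controls the same interval gave 1 higher member, Rps15, beside 8.28% of all genes higher, and no lower one, beside 9.15% (edgeR). DESeq2 gave 1 higher and 1 lower. Rps15 had 438, 496 and 439 CPM on day 2 and 596, 562 and 655 CPM on day 6, a log2 fold change of 0.41 ± 0.14 (adjusted p = 0.045). That call was lost when any 1 of the 6 controls was left out. The median of the members was 0.01 in the proton controls and -0.30 in the photon controls. Without the day 2 photon control of mouse 1 the latter was -0.06, and without the day 2 proton control of mouse 2 the former was 0.11.

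Differences between effects were tested as interactions. The effect of 15 Gy of protons was lower on day 6 than on day 2 for 1 member, Rps28, or 1.23% of the members. Of all genes 1.59% were lower and 1.05% higher, so the share of members lower was below that of all genes. The difference for Rps28 was -0.60 ± 0.16 (log2 scale, adjusted p = 0.044). Rps28 had 626, 645 and 617 normalised CPM in controls and 549, 609 and 584 at 15 Gy on day 2, and 451, 424 and 545 at 15 Gy on day 6 against the controls given above. The groups did not overlap on either day. Without the day 6 library of 15 Gy, mouse 1, 6 members were lower, and without that of mouse 3, 2 were. No member passed without the day 2 control of mouse 1 or 3, any 1 of the 15 Gy libraries of day 2, any 1 of the controls of day 6 or the day 6 library of 15 Gy, mouse 2. For photons the corresponding test called no member with edgeR or DESeq2, beside 0.0173% of all genes higher and 0.0864% lower, with 2 members at an unadjusted p under 0.05.

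At 15 Gy on day 6, the effect of protons was lower than that of photons for 1 member, Rps4x, or 1.23% of the members. Of all genes 1.86% were lower and 2.56% higher, so the share of members lower was below that of all genes. Rps4x had 82.7, 84.6 and 108 normalised CPM in the photon controls of day 6 and 88.1, 86.2 and 89.8 at 15 Gy of photons, which overlapped. The proton values of the same day, given above, did not, and the difference between the effects was -1.03 ± 0.21 (log2 scale, adjusted p = 0.011). The median difference over the 81 members was -0.38, against 0.05 over all genes, and 25 members had an unadjusted p under 0.05. The share of all genes at that unadjusted cut is not given here. Without the photon control of mouse 1 no member passed; without that of mouse 3, 7 did. Without the proton control of mouse 1, 5 passed, and without the 15 Gy proton library of mouse 1 or mouse 2, 14 and 3 did. On day 2 no member passed with edgeR or DESeq2 and none had an unadjusted p under 0.05, and 0.0% of all genes passed in either direction. The 2 radiation types were given on different days, so type and irradiation day cannot be told apart.

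**Figure D5:**
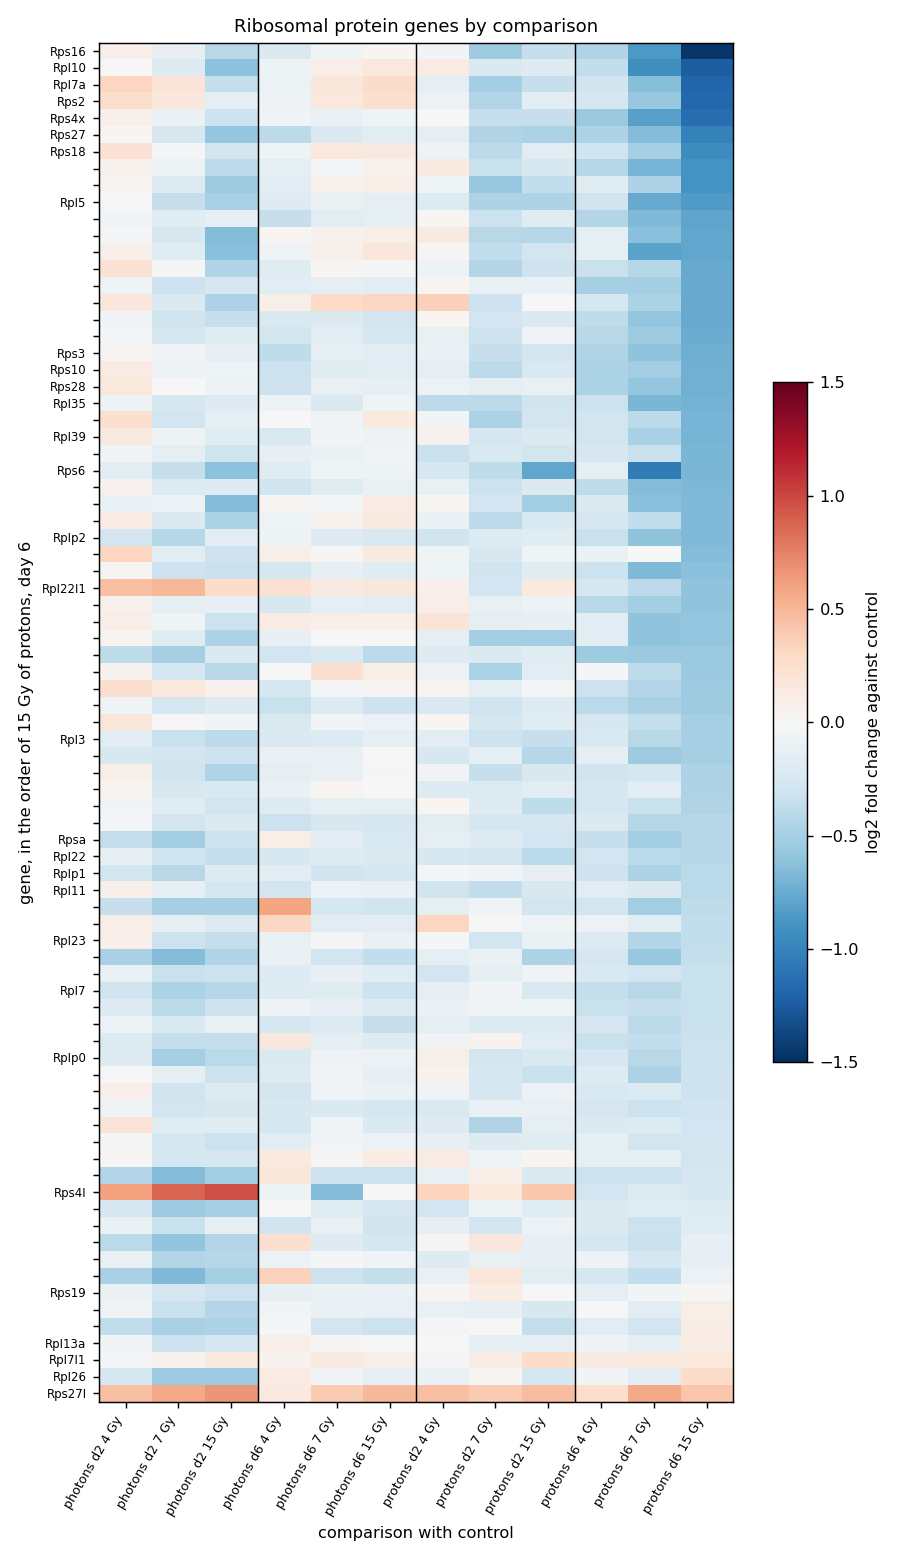
Log2 fold change against control (colour, blue below and red above 0) of the 81 members (rows, in the order of 15 Gy of protons on day 6, with names for genes described in the text) in the 12 comparisons (columns, with d2 and d6 for the day). The columns of day 6 after protons are blue for most rows, 78, 78 and 74 members below 0 at 4, 7 and 15 Gy, and the row of Rps27l at the bottom is red throughout. The median log2 fold change of all tested genes in these 3 comparisons was -0.008, -0.002 and -0.016.

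Some partners of these genes in translation were lower too. Of 4 ribosomal proteins that the naming rule left out, Rack1 and Fau were lower at 15 Gy of protons on day 6, with -0.69 ± 0.11 (adjusted p = 0.00019) and -0.67 ± 0.12 (adjusted p = 0.00045), while Rpl36al gave -0.50 ± 0.22 (adjusted p = 0.11). Of 17 translation factors and related genes, many of them with TOP tracts of their own, 7 were lower (41.2%) and none higher, with a median of -0.38, beside 13.2% of all genes lower and 11.0% higher. The elongation factor Eef1a1 was lower, at -1.0 ± 0.23 (adjusted p = 0.0037) and Eef2 at -0.43 ± 0.12 (adjusted p = 0.012). The initiation factor Eif4b was lower also at 15 Gy on day 2, at -0.68 ± 0.13 after photons (adjusted p = 0.0097) and -0.68 ± 0.12 after protons (adjusted p = 0.0018).

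The shares of ribosome biogenesis genes called were near those of all genes. Of 52 ribosome biogenesis genes, 9 were higher (17.3%) and 8 lower (15.4%) at 15 Gy of protons on day 6, beside 11.0% and 13.2% of all genes, with a median of 0.15. Nop14, of the small-subunit processome, was higher by 1.03 ± 0.14 (adjusted p = 6.2e-05), and Ubtf, the transcription factor of ribosomal RNA genes, was lower, at -0.92 ± 0.16 (adjusted p = 0.00038). Of 74 measured genes for mitochondrial ribosomal proteins, 9 were higher (12.2%, near the 11.0% of all genes) and 2 lower (2.7%, against 13.2%), with a median of 0.09; Mrpl13 was among the higher, at 0.60 ± 0.15 (adjusted p = 0.0059). The lists were compared by these counts only.

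Of 19 measured regulators of growth, 3 were higher (15.8%) and 6 lower (31.6%) at 15 Gy of protons on day 6, beside 11.0% and 13.2% of all genes. Myc, a transcriptional activator of ribosomal protein and biogenesis genes, was lower, at -1.28 ± 0.43 (adjusted p = 0.038). It had 15.5, 66.8 and 81.9 normalised CPM in controls and 36.2, 14.7 and 15.5 at 15 Gy (mice 1, 2 and 3). These groups overlapped, with the control of mouse 1 below the 15 Gy library of mouse 1. The translational repressor Eif4ebp1 was lower, at -0.94 ± 0.12 (adjusted p = 4.5e-05). Mtor and its partner Rptor were higher, by 0.67 ± 0.20 (adjusted p = 0.02) and 1.32 ± 0.32 (adjusted p = 0.0057). At 15 Gy of photons on day 6, Myc gave 0.51 ± 0.25 (adjusted p = 0.32).

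Of 11 genes of the p53 axis, 8 were higher (72.7%) and 2 lower (18.2%) at 15 Gy of protons on day 6, beside 11.0% and 13.2% of all genes. Mdm2, a target of p53 that also degrades it, was higher by 1.45 ± 0.20 (adjusted p = 6.7e-05), and the cell cycle inhibitor Cdkn1a by 0.60 ± 0.16 (adjusted p = 0.0099). Those lower were Sesn1, at -1.0 ± 0.34 (adjusted p = 0.038), and Trp53 itself, at -0.67 (adjusted p = 0.017). Mdm2 was higher by 1.25 ± 0.19 at 15 Gy of photons on day 6 (adjusted p = 0.00094), a comparison in which edgeR called no ribosomal protein gene and DESeq2 called 1. Of 15 proliferation genes 2 were lower at 15 Gy of protons on day 6, a share of 13.3% beside 13.2% of all genes, while Mki67 gave -0.26 ± 0.50 (adjusted p = 0.74).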

How the data were processed

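Gene counts per library were deposited by the authors as whole numbers, from QuantSeq 3' mRNA libraries of 100 ng RNA with integrity numbers above 9, per the labels' protocols. The build GRCm39 and edgeR are named in the submitters' processing notes; for the aligner, counter, strand setting, annotation and treatment of reads with several matches, the entry is "not given in the sources used here". Summary lines were left out: reads outside genes were 7.88 to 12.1% and ambiguous reads 0.380 to 0.565% of a library, and no reads were recorded as not unique. Symbols were found for 47224 of 47643 identifiers; 419 had none, 120 shared one and 0 members did. The 4 deposited tables of normalised values were not used.

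Each radiation type and day (12 libraries, 4 doses) was fitted with edgeR 4.0.16 (R 4.3.3; limma 3.58.1): filterByExpr, TMM factors and the quasi-likelihood F test, adjusted by Benjamini-Hochberg over all 10529 to 11308 genes tested, threshold 0.05. The SE was taken as the ratio of the fold change (log2) to the root of the F statistic. Culture time and interactions were each fitted over all libraries of both series they draw on, with all 4 doses. Libraries at doses that were not compared thus also entered the filter and the estimate of spread. The scripts were tested on simulated data. DESeq2 1.42.0, library size alone, TMM without the members, no filter, a mouse block and leaving out each library were alternatives. Thinning of the 12 proton day 6 libraries to 1812349 counts was added after seeing the data. Shares have Wilson 95% intervals (Python 3.11.15, scipy 1.17.1).

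Members, lists and alternatives were chosen with earlier results of these data known. The genes named are, per comparison, the 5 highest and 5 lowest called members, the stalk, p53-linked and paralogue members, Rpsa, Rps6, Rps3, Rps19 and Rpl13a, the members called most often, the smallest p-values of each pathway list, and Mdm2, Cdkn1a, Mki67 and Myc. Some genes under this rule are not reported here by name. Rps10, Rps18 and Rpl35 were added for their start sequences. The labels number the mice, and a number was taken to mark the same animal within a radiation type. The main fits did not use the mouse number, and the mouse block was an alternative. Deviations from group means correlated by 0.0783, 0.0769, 0.0809 and -0.0268 on average between libraries of the same mouse number in the 4 series. Between other mouse numbers they correlated by -0.0411, -0.0363, -0.0398 and 0.0133. No pair of libraries agreed within sampling noise (lowest chi-square per degree of freedom 2.253).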

Additional observations from a re-analysis of the deposited data

Results flagged for a closer look

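The effect of 15 Gy of protons on Rps28 was lower on day 6 than on day 2 by a test of the difference itself, -0.60 on the log2 scale. The effect of 15 Gy on Rps4x on day 6 was lower after protons than after photons, with a difference of -1.03, also by a test of the difference. The exposures took place on separate days. Each call was 1 of 81 members, or 1.23%, below the 1.59 and 1.86% of all genes lower in these tests. The Rps28 call was lost with library size alone and without any 1 of several libraries given above. The Rps4x call was lost without the photon control of mouse 1.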

How the results depend on the processing

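Of 50 calls of named genes, each repeated under the alternatives (838 repeats in all), 645 kept the call, 193 lost it and 0 reversed; 17 of the calls were lost under none. With the total multiplied by the TMM factor, the share differences on day 6 after protons were -0.971, -1.36 and -1.37 points at 4, 7 and 15 Gy, and without mitochondrially encoded genes -0.804 points at 7 Gy. Calls were, with library size alone, 1 at 15 Gy of photons on day 2, 0, 12 and 32 at 4, 7 and 15 Gy of protons on day 6, 4 and 0 for culture time in photon and proton controls, and 0 for the day interaction after protons. With no filter they were 7 and 11 at 7 and 15 Gy of photons and 5 and 5 at 7 and 15 Gy of protons on day 2, 6 for that interaction and 13 for protons minus photons on day 6. DESeq2 gave 11, 4 and 1 at 7 and 15 Gy of photons on day 2 and 15 Gy on day 6, 3 at 15 Gy of protons on day 2, 10 at 4 Gy of protons on day 6, 2 for culture time in proton controls, 4 for the interaction and 5 for protons minus photons. With mouse as replicate block there were 1 call at 15 Gy of photons on day 2, 2 at 15 Gy of protons on day 2 and 0 at 4 Gy of protons on day 6, and no other count moved by over 1.5 times. Thinning left 0 at 4 Gy of protons on day 6, and TMM without the members gave 4 for protons minus photons. Leaving out 1 library at a time gave 0 to 6 and 0 to 34 calls at 7 and 15 Gy of photons on day 2, 0 to 3 and 0 to 9 on day 6, 0 to 1 and 0 to 5 at 7 and 15 Gy of protons on day 2, and 0 to 9, 18 to 50 and 37 to 53 at 4, 7 and 15 Gy on day 6. With 1 of the compared libraries left out, culture time gave 3 to 19 calls in photon controls and 0 to 0 in proton controls. The day interaction after protons gave 0 to 6, and protons minus photons on day 6 gave 0 to 14. These counts are of members only, without the share of all genes under the same setting. The causes were not tested. Depth limits Rpl24, Rps4l and Rps6, the members with the fewest counts.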
